A study of Caenorhabditis elegans with 4 samples.

Results

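The CES-1 binding regions on chromosome V of the nematode Caenorhabditis elegans are described here. They are all regions that the authors' combined peak list places on that chromosome, 1209 of 8678 in all (13.9%). CES-1 was mapped in embryos by ChIP-seq, in which DNA crosslinked to a protein is precipitated with an antibody and sequenced. All 4 libraries came from embryos of strain OP174, grown at 20 degrees Celsius as a population of males and hermaphrodites. The strain carries the unc-119 allele ed3 and the transgene wgIs174, put in by bombardment, in which ces-1 is joined to TY1, EGFP and FLAG tags and which also holds unc-119. The 2 ChIP libraries were precipitated with anti-GFP antibodies, and the 2 Input libraries are DNA kept from the extracts before precipitation. ChIP and Input libraries thus share allele and transgene, and what was precipitated is the tagged protein only. No strain without the tag is among the samples, and nothing in the labels says whether the replicates came from separate cultures.

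CES-1 belongs to the Snail family of zinc-finger proteins, which are known mostly for repressing their targets by binding E-box sequences. In the worm it is known for controlling the death of specific pharyngeal nerve cells, where it acts on egl-1, the gene whose protein starts the cell death pathway. RefSeq places egl-1 on chromosome V, but its annotation is of another build than the peak lists, so no region was assigned to egl-1 or any other gene. Chromosome V is the longest worm chromosome. Worm autosomes are known for gene-dense, conserved, rarely recombining centres and for arms rich in repeats and in fast-changing gene families, and chromosome V carries many genes for chemoreceptors of the G-protein-coupled type.

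Positions are those of build WS220, counted from 1. The chromosome was taken to reach to 20922521, the last position covered by a region of any list, and was split into 3 equal parts of 6.97 Mb. These are called the left arm (up to 6974173), the centre (up to 13948347) and the right arm. Each region carries a peak number from the authors, in which 1 is the strongest, and a score with a ceiling of 3.97 in the combined list. The ceiling is shared by 4629 regions, which hold peak numbers 1 to 4629, so the peak number was used as the rank. The lists hold no reads, so the depth behind a region is unknown.

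CES-1 regions were sparse on chromosome V, and most of all in its arms. The chromosome held 57.8 regions per Mb, against 73.6 to 113 per Mb on the other 5 chromosomes and 94.2 per Mb over those 5, a ratio of 0.614. Merged where they overlap, its regions covered 449 kb, or 2.15% of the span, against 2.70% to 4.24% on the others. The replicates' own lists also put V lowest. Chromosome V held 205 regions per Mb in replicate 1 and 205 in replicate 2, while the other chromosomes held 269 to 358 in replicate 1 and 276 to 370 in replicate 2. With 1 chromosome set against 5, the smallest one-sided exact permutation p would be 0.167, and chromosomes are not samples, so differences from the other chromosomes were not tested and are given as values.

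The centre of chromosome V held 588 regions (48.6%, 95% Wilson interval 45.8 to 51.5), the left arm 337 (27.9%, 25.4 to 30.5) and the right arm 284 (23.5%, 21.2 to 26.0). Equal spread would put 33.3% in each. The intervals cover counting error only and take neighbouring regions as independent, which they are not. Per Mb this was 84.3 regions in the centre, 48.3 in the left arm and 40.7 in the right arm, so the centre was 1.89 times as dense as the mean of the arms. The other 5 chromosomes had ratios from 1.10 on X to 1.66 on II, and 40.5% of the regions of all 6 chromosomes lay in centres. Of the 18 parts that 6 chromosomes give, the right arm of V was the sparsest and its left arm the second sparsest. The next were the left arm of II at 52.2 per Mb and the right arm of IV at 58.7. The centre of V was also the sparsest of the 6 centres, with IV next at 87.6 per Mb, although it was denser than the left arm of IV at 74.4.

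**Figure D1:**
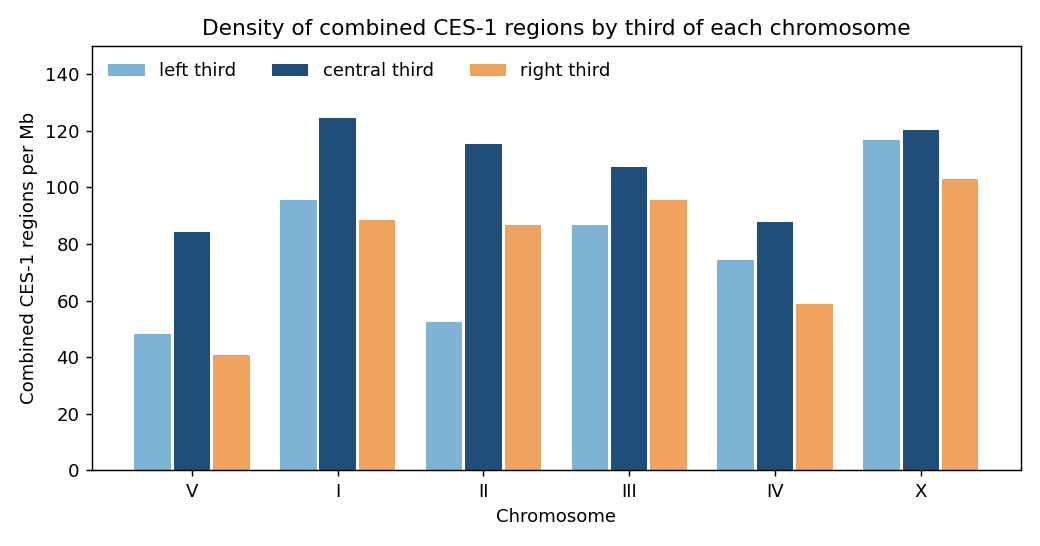
Combined CES-1 regions per Mb (vertical axis) in the left, central and right part of each chromosome (horizontal axis, chromosome V first); each bar is 1 count divided by its length, with no replicate error. The bars for the arms of V, at 48.3 and 40.7 per Mb, are the lowest of the 18, and its centre reaches 84.3.

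To see whether the surplus in the centre depended on the combined list, the 8678 best-ranked nuclear regions of each replicate were used in its place. The centre then held 48.2% of the chromosome V regions in replicate 1 and 49.2% in replicate 2, a mean of 48.7% ± 0.732 (SD, n = 2). The left arm held 27.7% ± 1.06 (SD, n = 2) and the right arm 23.6% ± 0.325 (SD, n = 2). Among these best-ranked regions the centre thus exceeded each arm by far more than the replicates differed. The combined list comes from these same replicates, so this is no independent check. In the full replicate lists, which reach to weaker regions, the centre held 35.3% of the chromosome V regions in replicate 1 and 38.6% in replicate 2. The excess of the left arm over the right in the combined list was small. It was 337 regions against 284, a ratio of 1.19, and it shrank to 1.04 in the best-ranked 50% of the combined list.

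Along the chromosome, regions per Mb followed a rugged profile. The highest count was 118, between 11000001 and 12000000, and the next were 99 between 13000001 and 14000000 and 97 between 10000001 and 11000000. The 6 Mb from 9 to 15 Mb held 558 regions, 46.2% of the chromosome's. Beyond 15 Mb the count dropped to 29, then 16, then 11 regions in successive Mb, the lowest being the Mb from 17000001. It stood at 27 and 38 in the following 2 Mb and was 80 in the last 0.923 Mb. A shallower trough lay in the left arm, where the Mb from 2000001 held 22 regions and that from 3000001 held 29, with 71 regions just to its left. These stretches were picked out after their values had been seen.

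**Figure D2:**
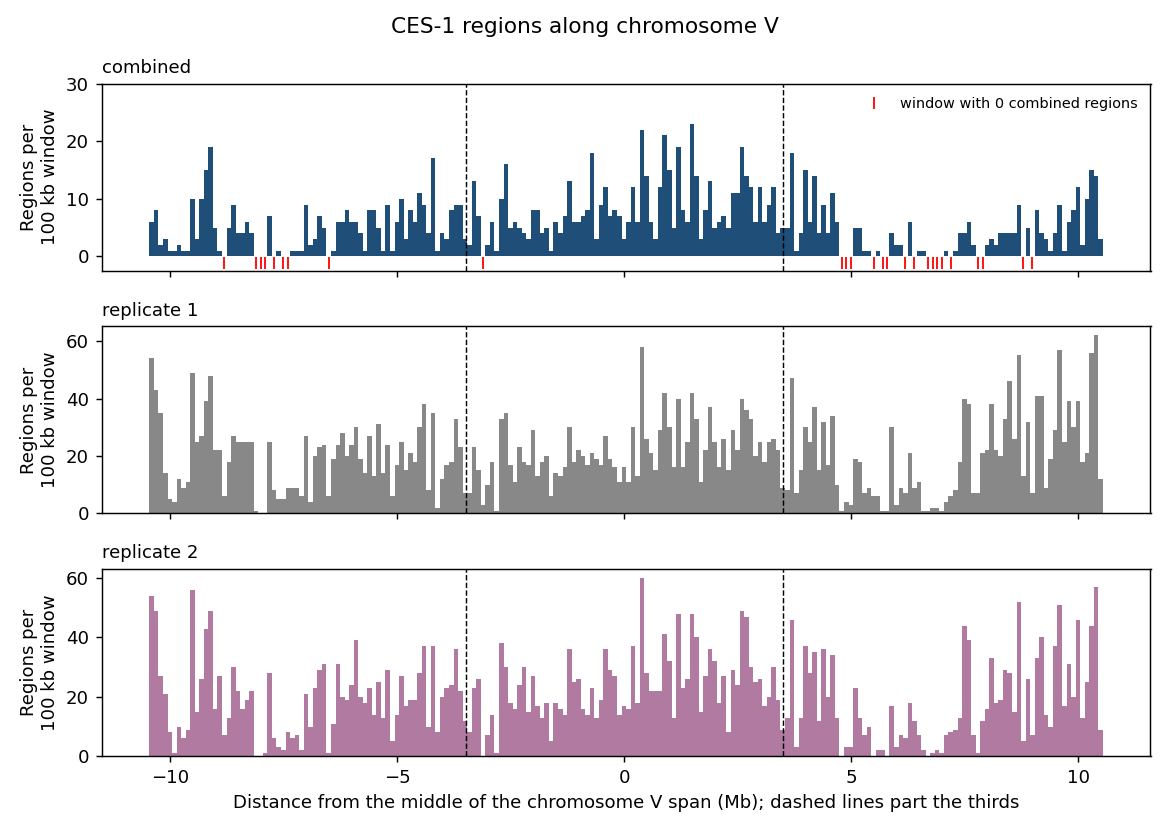
Number of CES-1 regions in each 100 kb window of chromosome V (vertical axes) against distance from the middle of its span in Mb (horizontal axis), in the combined list and in replicates 1 and 2, with red ticks at the 26 windows without a combined region. The central part has 1 tick, and the ticks crowd at about 5 to 9 Mb right of the middle, with 17 in the right arm.

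Windows of 100 kb without any region were frequent. On chromosome V, 26 of 210 windows were empty (12.4%, 95% Wilson interval 8.59 to 17.5). The other 5 chromosomes had 27 of 795 (3.40%), and over all 6 the share was 5.27%. The shares on the others ran from 1.32% on I to 6.86% on IV. Of the 26 empty windows, 17 lay in the right arm, 8 in the left arm and 1 in the centre, at 7300001 to 7400000. A further 26 windows of V held a single region. The median window held 5 regions on V and 9 elsewhere.

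Runs of at least 3 adjacent empty windows were found at 3 places. The longest was 400 kb, from 17100001 to 17500000, where replicate 1 listed 6 regions and replicate 2 listed 4. The second, from 15200001 to 15500000, held 8 and 6 replicate regions. The third, from 2300001 to 2600000, held 1 and 1. The runs were thus nearly bare in the replicate lists too, whose median window on V held 19 regions in each. Over all 26 empty windows the replicate counts ran from 0 to 21 in replicate 1 (median 4.5) and from 0 to 12 in replicate 2 (median 2). The window from 18300001 to 18400000 held 21 and 12 regions, and that from 16800001 to 16900000 held 9 and 12. Just 1 window, 2400001 to 2500000, was empty in both replicates. In 17 of the 26, neither replicate had a region among its 8678 best-ranked.

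Long gaps gave the same picture on a finer scale. Between neighbouring merged regions of V the median distance was 4.65 kb, and the median on other chromosomes lay between 3.50 and 4.79 kb. The median of V was thus within the range of the others, while its long distances were not. Chromosome V held 31 of the 80 gaps of at least 100 kb, which added up to 5.58 Mb or 26.7% of its span, against 2.24% to 17.1% of the span on the others. Of these gaps 15 lay in the right arm, 14 in the left arm and 2 in the centre.

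The longest gap, 461 kb from 17076862 to 17538227, held 7 regions of replicate 1 and 6 of replicate 2, and the best of them were numbers 11843 and 5105. The second, 379 kb from 18111769 to 18490292, was unlike it, with 40 and 24 replicate regions, the best of them numbers 7593 and 11055. Then came 366 kb from 2827327 to 3192944 (22 and 12 regions), 322 kb from 15189828 to 15511577 (8 and 7) and 319 kb from 2281832 to 2600503 (4 and 5). Over all 31 gaps the replicates listed 69.1 and 51.8 regions per Mb, compared with 205 and 205 over the chromosome. The gaps were thus thin but not bare in the replicates. Most of what they held ranked low. The best-ranked regions in them were number 2629 of replicate 1 and number 3099 of replicate 2, both in the gap from 15874127 to 16040360. Number 5105 of replicate 2, in the longest gap, and its number 5264, from 5093250 to 5199108, also stood at the score ceiling of that replicate, which reaches to number 5628.

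Single regions stood far from any other in this landscape. The region at 17538228 to 17538667 (peak number 7030, numbers 6426 and 6346 in the replicates) stood 211 kb from its nearest neighbour, as it parts 2 long gaps. The region at 16040361 to 16040800 stood 166 kb from its nearest neighbour, and the region at 2826887 to 2827326 stood 129 kb away. In all, 22 regions of V lay at least 50 kb from the next one.

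Dense windows were mostly central. On V, 38 of 210 windows (18.1%) held 10 or more regions, against 43.4% of the windows of the other 5 chromosomes and 38.1% over all 6. These 38 windows held 539 regions, 44.6% of the chromosome's, and 23 of them lay in the centre, 7 in the left arm and 8 in the right arm. The densest, from 11900001 to 12000000, held 23 regions (21 after merging) and 42 and 48 regions of replicates 1 and 2. The next were 10800001 to 10900000 with 22, and 11300001 to 11400000 with 21. Windows with 19 regions started at 1300001, 11600001 and 13000001, and the first of these was the only one of the 6 outside the centre. With windows counted from position 1, the maximum on V was below or equal to that of every other chromosome, where it ran from 23 on III to 38 on II. This order depends on where the windows start. With windows shifted by 50 kb the maximum on V was 29, and shifted windows were not counted on the other chromosomes.

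Chains of regions with no more than 5 kb between neighbours were looked at next. There were 546 chains, counting the 302 that consist of 1 merged region. Of 75 chains with at least 4 merged regions, 44 were in the centre, 17 in the left arm and 14 in the right arm. The longest by number held 13 merged regions each, at 11945680 to 11966389 (20.7 kb) and at 13016862 to 13033894 (17.0 kb), both in the centre. The second of these chains holds 2 of the 10 strongest regions of the chromosome. A left-arm chain of 11 ran from 1222078 to 1244698.

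The strongest regions of V ranked high in both replicates, from which the combined list itself comes, so this is no independent check. The first lay in the centre at 10721259 to 10721720, was peak number 6 of the combined list, and overlapped number 8 of replicate 1 and number 9 of replicate 2. The second, 834 bp wide at 9765343 to 9766176, was number 7, and overlapped numbers 11 and 8. The best of the left arm, at 4357322 to 4357841, was number 12 (13 and 19 in the replicates). It was followed in that arm by 6267400 to 6267798 (19 and 20), by 966174 to 966591 (25 and 31) and by 5200060 to 5200557 (63 and 83). The best of the right arm, at 14685577 to 14685978, was number 48 (61 and 42). The other 3 of the first 10 were central, at 13024495 to 13025046 (59 and 14), 8253914 to 8254294 (44 and 60) and 13028846 to 13029285 (93 and 74). So the first 10 were 5 in the centre, 4 in the left arm and 1 in the right arm. The strongest between 15 and 20 Mb was at 17857917 to 17858415, numbers 192 and 97.

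Strength as a whole was close to that of other chromosomes. The median peak number on V was 4377, against 4332 on the others, and 52.03% of its regions stood at the score ceiling, where the share over all regions was 53.3%. Among peak numbers 1 to 1000, V had 148 of its regions (12.2%), with 11.5% over the whole list. Both shares were near those of the whole list, so they are no result about V. Within the chromosome the left arm had the highest median peak number, that is the weakest regions, at 4781. The right arm had 4343.5 and the centre 4106. The share at the ceiling was 47.2% in the left arm (95% Wilson interval 41.9 to 52.5), 52.1% in the right arm (46.3 to 57.9) and 54.8% in the centre (50.7 to 58.7). These intervals overlap.

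The rank of a region and its place on the chromosome went together in both replicate lists, which reach far below the combined one. Among peak numbers 1 to 1000 the centre held 51.4% of the chromosome V regions of replicate 1 and 51.9% of those of replicate 2. It held 42.9% and 46.0% among numbers 5001 to 10000, 36.2% and 41.7% among 10001 to 15000, and 26.0% and 28.2% among 25001 to 30000. The central share was thus lower at each step below number 5000 in both replicates, and it ended under the 33.3% of an even spread. Chromosomes I to IV, given below, shared this fall. The right arm of V went the other way. It held 23.9% and 24.4% in the first 1000 and 39.3% and 36.8% in the last 5000. In the left arm most of the change came early, with 24.6% and 23.7% in the first 1000, 32.9% and 30.7% by numbers 5001 to 10000, and 34.7% and 35.04% at the end.

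The centre averaged 51.7% ± 0.364 (SD, n = 2) for the first 1000 numbers and 27.1% ± 1.56 (SD, n = 2) for the last 5000, so the difference was much larger than the spread between replicates. On chromosomes I to IV the central share was 36.7% and 38.6% in the first 1000, 43.1% and 44.0% among numbers 1001 to 5000, and 23.6% and 25.5% in the last 5000. It was thus higher in the second step than in the first and lowest at the end, while V held 51.6% and 51.1% in the second step. Below number 5000 the central share on I to IV was also lower at each step in both replicates. It was 37.0% and 39.8% among numbers 5001 to 10000 and 29.9% and 33.6% among 10001 to 15000. The fall below number 5000 is thus not particular to V. On X the central share was 29.03% and 29.7% in the first 1000, 35.7% and 36.4% among numbers 1001 to 5000, and 31.5% and 31.3% in the last 5000. Chromosome V's share of all nuclear regions varied less with rank, being 14.3% and 15.6% in the first 1000 and 15.6% and 14.8% in the last 5000. The combined list, which stops at stronger regions, showed a part of the same slope. The centre held 53.4% of the chromosome V regions among peak numbers 1 to 2169 and 44.1% among 6509 to 8678.

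**Figure D3:**
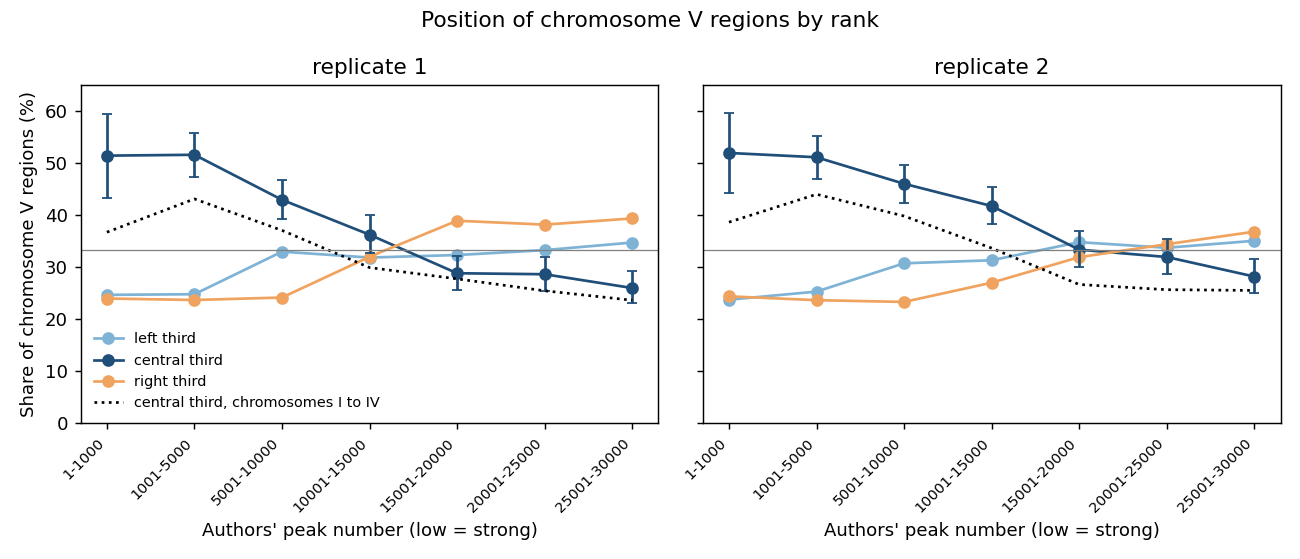
Share of the chromosome V regions of each replicate (vertical axis, %) that lie in the left, central and right part, by the authors' peak number (horizontal axis, strong to weak); bars on the central line are 95% Wilson intervals, and the dotted line is the central share on chromosomes I to IV. The central line falls from 51.4% and 51.9% at the strong end to 26.0% and 28.2% at the weak end and crosses the right-arm line on the way.

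The combined list accordingly kept different shares of the replicate regions along V. In the centre 45.5% of the replicate 1 regions and 42.5% of the replicate 2 regions overlapped a combined region, a mean of 44.0% ± 2.16 (SD, n = 2). In the left arm it was 29.1% and 29.6% (mean 29.3% ± 0.333, SD, n = 2) and in the right arm 23.4% and 27.01% (mean 25.2% ± 2.56, SD, n = 2). Over all nuclear regions the shares were 34.3% in replicate 1 and 34.6% in replicate 2, and on V as a whole they were 33.0% and 33.8%. Both values of the centre lay above all values of the arms. Overlap with the other replicate was 64.4% and 65.3% on V, near the 67.1% and 67.6% of all nuclear regions of replicates 1 and 2. It was 72.9% and 68.5% in the centre, 62.7% and 62.2% in the left arm and 56.9% and 64.3% in the right arm.

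The sparse parts of V differed in what the replicates listed there. Between 15 and 18 Mb all lists were thin, with 18.7 combined regions per Mb beside 97.3 and 89.0 in replicates 1 and 2. Between 18 and 20 Mb the replicates listed 263 and 220.5 per Mb, more than or near the 205 of the whole chromosome, but the combined list had 32.5. Just 14.4% and 18.8% of the replicate regions there overlapped a combined one, and their median peak numbers were 19353.5 and 20351. At the left end, the first Mb held 236 and 241 replicate regions and 35 combined ones, and 18.6% and 17.8% of the replicate regions overlapped these. In both places most listed regions were weak, with median peak numbers of 18594.5 and 18695 at the left end. Replicate regions in the thin stretches were weak too. Their medians were 17699 and 17380 between 15 and 18 Mb and 18658.5 and 17403 between 2 and 4 Mb. The left trough from 2 to 4 Mb was also thin in all lists, with 25.5 combined and 128 and 117.5 replicate regions per Mb. Its combined regions had a median peak number of 5523, against 4425 between 15 and 18 Mb. Of them 33.3% stood at the ceiling, against 50.0%. The 6 Mb from 9 to 15 Mb had 93.0 combined regions per Mb, and 46.2% and 43.1% of the replicate regions there overlapped the combined list.

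**Figure D4:**
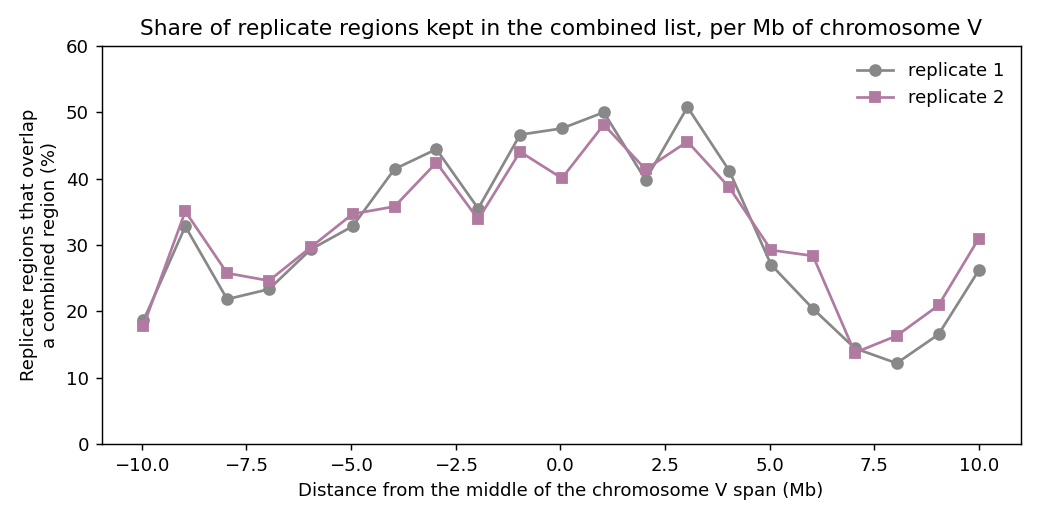
Percent of the regions of each replicate that overlap a combined region by at least 1 bp (vertical axis), in successive Mb of chromosome V placed by distance from the middle of its span (horizontal axis, Mb). Both replicates stand above 40% over most of the central stretch, reach 50.8% and 48.1% at their highest and drop to 12.2% and 13.8% at their lowest, in the right arm.

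Nearly all combined regions of V were found in both replicate lists. An overlap of at least 1 bp with both lists was found for 1192 of 1209 regions (98.6%, 95% Wilson interval 97.8 to 99.1), and over all chromosomes the share was 98.7%. Replicate 1 alone supported 10, replicate 2 alone supported 7, and 0 had no overlap in any replicate list. The combined list comes from these same replicates, so this recovery is no independent check. By part of the chromosome, 336 of 337 left-arm regions, 576 of 588 central ones and 280 of 284 right-arm ones were in both. Stronger support was less frequent. In 556 regions (46.0%, with 47.9% over all regions) the overlapping peaks stood at the score ceiling in both replicates. In 251 this held for replicate 2 alone and in 41 for replicate 1 alone, while replicate 2 had 804 regions of V at its ceiling and replicate 1 had 559. Together these were 24.2% of the V regions, with 21.3% over all regions. Over all chromosomes the counts were 1601 for replicate 2 alone and 251 for replicate 1 alone, so the excess of replicate 2 is not particular to V.

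Of the 17 regions without support in both, 12 were central, 4 in the right arm and 1 in the left arm. The 5 best-ranked were all in the centre, and all lacked support in replicate 2. They lay at 10961331 to 10961652 (peak number 901, number 713 in replicate 1), 8500422 to 8500619 (number 1771, 1576 in replicate 1), 11960499 to 11960773 (2403 and 2149), 11610546 to 11610685 (2618 and 1803) and 12869870 to 12870309 (3196 and 3591). The first had another combined region 11 bp away and the third had one 106 bp away. These were therefore strong calls of replicate 1 with no overlapping call in replicate 2. The best-ranked without replicate 1, at 8507328 to 8507767, was number 4847 and overlapped number 4708 of replicate 2.

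For the 1192 regions found in both replicates, Spearman's rho between both peak numbers was 0.821, given as a description, since regions share libraries and are not replicates. On the other chromosomes it was 0.829 over 7373 regions. Such agreement is no independent check, since the combined list comes from these same replicates. The source field also names IDR, a comparison of ranks between replicates, so regions may have been kept for agreeing in rank. Overlapping regions can share the same replicate peaks, so the 1192 are not all distinct pairs. The median ratio between both peak numbers was 1.37, and for 1001 regions (84.0%) it was at most 2. Replicate 1 ranked 580 of the regions better and replicate 2 ranked 612 better. The most discordant region lay at 13678749 to 13679188. Replicate 1 ranked it 768, replicate 2 ranked it 12442, and the combined list had it as number 6814. The weakest combined region of V, at 11807746 to 11808185, was number 8669 and overlapped numbers 15630 and 7458.

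**Figure D5:**
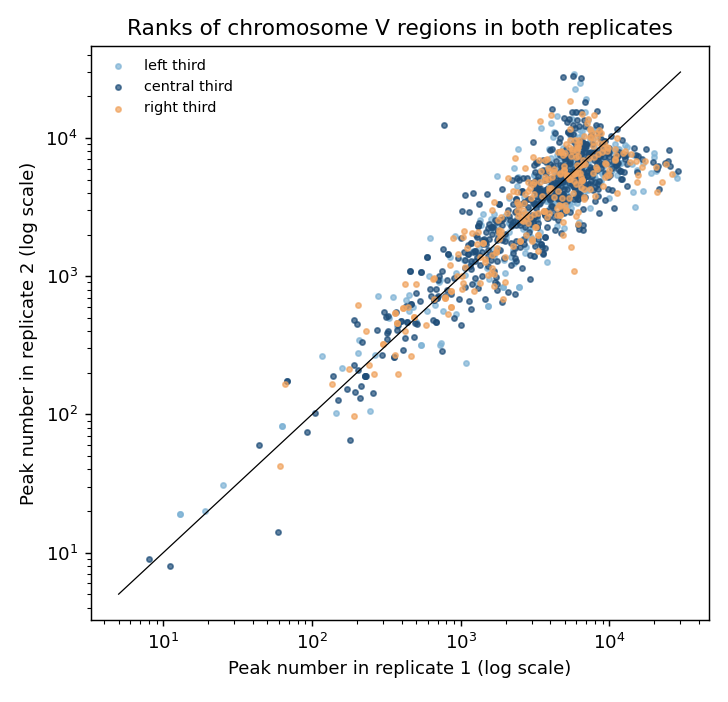
Best overlapping peak number in replicate 2 (vertical axis) against that in replicate 1 (horizontal axis), both on log scales, for the 1192 chromosome V regions found in both; the line marks equal numbers and colours mark the part of the chromosome. Points lie close to the line among the strongest regions and spread out beyond about 5000, and all parts of the chromosome are mixed along it.

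A few strong sites of both replicates were missing from the combined list. On V, 7 pairs of overlapping peaks stood at the ceiling in both replicates but overlapped no combined region. In all, replicate 1 had 559 regions of V at its ceiling and replicate 2 had 804. Such pairs are not given for the other chromosomes, so whether 7 is many or few for V is unknown. By their number in replicate 1, the best 3 were at 13313005 to 13313444 (number 1663 in replicate 1, overlapping number 1824 of replicate 2), 9503330 to 9503769 (2230 and 1584) and 12450390 to 12450829 (2540 and 2961). These 3 were central, and their nearest combined regions lay 18.1, 19.3 and 14.6 kb away. The next, in the right arm at 14347179 to 14347618 (2581 and 2035), ranked better than the last of these in replicate 2 and lay 3.44 kb from a combined region. Another pair, at 16022775 to 16022884 (2629 and 3099), is that of the best-ranked replicate regions in the long gaps given above.

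The narrowest region of V had 110 bp and the widest 1307 bp, while 831 (68.7%) had exactly 440 bp. On the other 5 chromosomes the share with 440 bp ran from 67.2% to 70.8%, so it is no result about V. Width went with rank. Among peak numbers 1 to 2169 just 7.17% of the V regions had 440 bp, and their median width was 279 bp. The share with 440 bp was 74.9% among numbers 2170 to 4339 and 97.6% among numbers 6509 to 8678. The 31 regions wider than 440 bp had a median peak number of 395, the 347 narrower ones 1323 and those of 440 bp 5602. Widths other than 440 bp were thus most frequent among the strongest regions, although some low-ranked regions had them too.

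Overlaps joined 160 regions of V (13.2%) into 77 pairs and 2 groups of 3, so that 1128 stretches remained after merging. On the other chromosomes the share of overlapping regions ran from 12.3% on III to 14.9% on I, so it is no result about V. In the centre, the widest interval, 9768655 to 9769961, is listed 3 times, with peak numbers 272, 367 and 3317. It lies in the same chain as the second strongest region of the chromosome. The other group of 3 spans 17870592 to 17871503 in the right arm. In all, 19 regions of V share their whole interval with another. Within 1 kb of a neighbour stood 505 regions (41.8%), and the share over all regions was 42.4%. It was 46.3% in the centre, 39.8% in the left arm and 34.9% in the right arm, and 56.8% for regions among the first 1000 peak numbers, against 39.7% for the other regions of V.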

How the data were processed

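The authors deposited 1 peak list for each ChIP replicate and 1 combined list. Per the file headers the build is WormBase WS220, and the source field names SPP (a peak caller) and IDR (a comparison of ranks between replicates). The sources used here do not give tool versions, thresholds, the aligner or how the lists were combined. The score deposited with each peak has no stated scale and served only, with the peak number, to rank regions within a list. Below the ceiling, peak number and falling score had a Spearman's rho of 0.996 in the combined list. The Input libraries have no list in this work.

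Regions were assigned to windows and parts by their centres, and distances run from edge to edge. The tools were scipy 1.17.1, pandas 2.3.3, numpy 2.4.6 and, for plots, matplotlib 3.10.9, all under Python 3.11.15. The steps were tested on simulated data. Because no second condition exists, no test was run, and replicate values have the SD of 2 libraries, which may be technical. Intervals cover counting error only. Alternatives were stricter ranks, merging, single replicates, other windows, boundaries and overlaps. The regions, windows and gaps named were taken by rank, count or length, and other items that are singled out were chosen after their values were seen. The members and the measures were chosen with earlier results of these data known. Genes and sequences at the regions were not analysed here.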

Additional observations from a re-analysis of the deposited data

How the results depend on the processing

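The 9 results were recomputed under 37 alternatives. Of these, 28 stayed within the interval of the value given, or within 1.5 times the longest gap and the densest window. A reversal was defined only for the ratio of the left-arm to the right-arm count, and 0 of its alternatives reversed. The full replicate lists were not among these alternatives. There replicate 1 had fewer regions in the left arm than in the right, 1361 against 1415, while replicate 2 had more, 1363 against 1270. The central share of chromosome V regions was 51.5% in the best-ranked 50% of the list and 67.4% with the middle 50% of the span as the centre, which by construction is wider. Empty windows made up 24.3% in the best-ranked 50% of the list, which by construction has fewer regions, 27.2% with 50 kb windows and 3.81% with 200 kb windows. Support in both replicates was 84.1% with 50% reciprocal overlap and 97.4% with centres within 200 bp, which are stricter by construction. Regions within 1 kb of another made up 26.8% in the best-ranked 50% of the list and 34.0% after merging, both with fewer regions. Without replicate 1 and without replicate 2, taking the best-ranked regions of the remaining one, the share of regions on chromosome V was 14.2% and 13.7%, the central share 49.2% and 48.2%, the share of empty windows 11.0% and 11.4%, and the longest gap 381 and 461 kb. No paired analysis was possible because ChIP peaks were the sole lists used and they hold no Input values. The lists give no depth, so what deeper sequencing would find in the gaps is unknown.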
